A study of Mus musculus with 24 samples.

Results

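High-fat feeding combined with metformin was compared with untreated control feeding in the distal small intestine of mice. The comparison takes 12 of the 24 libraries of the series, chosen by their labels alone: 6 from animals on a high-fat diet that received metformin (HFDmetf) and 6 from animals on a control diet without the drug (CD). All animals were C57BL/6N mice, 4 to 5 weeks old at the start, and in either group 3 were male (M1, M2, M3) and 3 female (F1, F2, F3). The control diet supplied 10% and the high-fat diet 60% of energy as fat. Metformin, an oral glucose-lowering drug, was given in drinking water at 50 mg/kg/day over 10 weeks, following 20 weeks of feeding, so that diet and drug differ together between HFDmetf and CD. The high-fat diet without the drug (HFD, 6 libraries) and the control diet with it (CDmetf, 6 libraries) served to place the levels. Each library is 1 animal from a cage of 3, and the whole tissue piece was extracted.

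Dietary fatty acids activate the nuclear receptor PPAR alpha in enterocytes, and its targets include the enzymes of fatty acid oxidation, the omega-hydroxylases of the Cyp4a family and lipid droplet coats. Absorbed fat is re-esterified and leaves the enterocyte in chylomicrons, which carry the apolipoproteins ApoB, ApoA-IV and ApoA-I. Genes of cholesterol synthesis are driven by the transcription factor SREBP2, which is held inactive when the cell has enough sterol, and metformin reaches high concentrations in the gut wall, where inhibition of respiratory complex I is its best known action.

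Reads counted on genes ranged from 2777387 to 22413162 in CD (median 10387014) and from 1829690 to 27226092 in HFDmetf (median 3966407). Some libraries stood apart. In CD M3, 85.4% of the reads fell on the 10 most counted genes, with CT010467.1, Gm23935, *Lars2*, *mt-Rnr2* and *mt-Rnr1* at the head of the list, and in HFDmetf F2 this share was 36.6%, against 10.1% to 16.7% in the other 10 libraries compared. The sex-linked reads of all 12 libraries matched their labels. Outside them, HFD M2 and HFD F2 carried sex-linked reads against their labels. Since the model with its sex term is shared by all 24 libraries, they also enter HFDmetf against CD, where leaving out both gave 734 genes at an unadjusted p under 0.05 in place of 627, 11 lower cholesterol genes in place of 14 and 1 higher fat absorption gene in place of 2. Defining markers of epithelium, distal enterocytes, smooth muscle and macrophages were present in every group. The markers of proximal enterocytes varied most between animals: their summed level, in CPM (read counts scaled to a common normalised library size), lay between 264 and 5398 in CD (median 1707) and between 264 and 4727 in HFDmetf (median 2276). The part of this spread between animals in the results was not tested. In whole tissue, fewer cells of a type and less RNA per cell cannot be told apart.

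Of 13505 genes tested with edgeR's quasi-likelihood test, 0 passed FDR < 0.05 between HFDmetf and CD (0%, lowest edgeR FDR = 0.356, for *Cyp4a10*). With other tools the number was 1 with limma-voom, 7 with DESeq2 and 834 with limma-voom and sample quality weights. At an unadjusted p under 0.05, edgeR gave 373 genes higher in HFDmetf (2.76%) and 254 lower (1.88%). The total of 627 became 1621 without CD M3 and 1390 without HFDmetf M3. These counts at the unadjusted threshold are used below as a description of gene groups, each to be read against the share over all genes. In the same way 381 genes were higher (2.82%) and 261 lower (1.93%) in HFD against CD, and 417 were higher (3.09%) and 511 lower (3.78%) in HFDmetf against HFD, with 0 genes at FDR < 0.05 by edgeR in both (0 and 0 by limma-voom, 12 and 0 by DESeq2, 1425 and 2429 with the weights). The 12 of DESeq2 include *Xist*, a transcript of females, and *Lars2* and Gm15564, both among the most counted genes of CD M3. These 3 comparisons share libraries, so their values are set side by side and are not independent. The p-values set each difference against a spread between animals that was estimated from all 24 libraries. With 1 animal per cage, variation between animals and between cages cannot be told apart. The median log2 fold change (logFC) over all genes was −0.01 between HFDmetf and CD, and the median standard error (SE) was 0.20. A range in parentheses after a logFC is its 95% interval, and no gene named in any of these comparisons passed FDR < 0.05 by edgeR.

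The enzymes of fatty acid oxidation were higher in HFDmetf than in CD. Of the 32 tested genes on a list of 35 oxidation enzymes and PPAR targets, 15 had an unadjusted p under 0.05 and a higher level in HFDmetf (46.9%, beside 2.76% of all genes), none had one and a lower level, and 28 lay above 0. The median logFC was 0.42. Against CD, HFD without the drug had 18 of the 32 higher and none lower, with a median of 0.55 (beside 2.82% of all genes). Between HFDmetf and HFD the median was −0.08, with 0 of the 32 higher and 1 lower (beside 3.78% of all genes). The level of the list, taken in each library as the median over its members and centred on the CD mean, was between −0.32 and 0.20 on the log2 scale in CD and between −0.31 and 0.64 in HFDmetf. All HFDmetf libraries except F2 lay above the highest CD library.

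**Figure D1:**
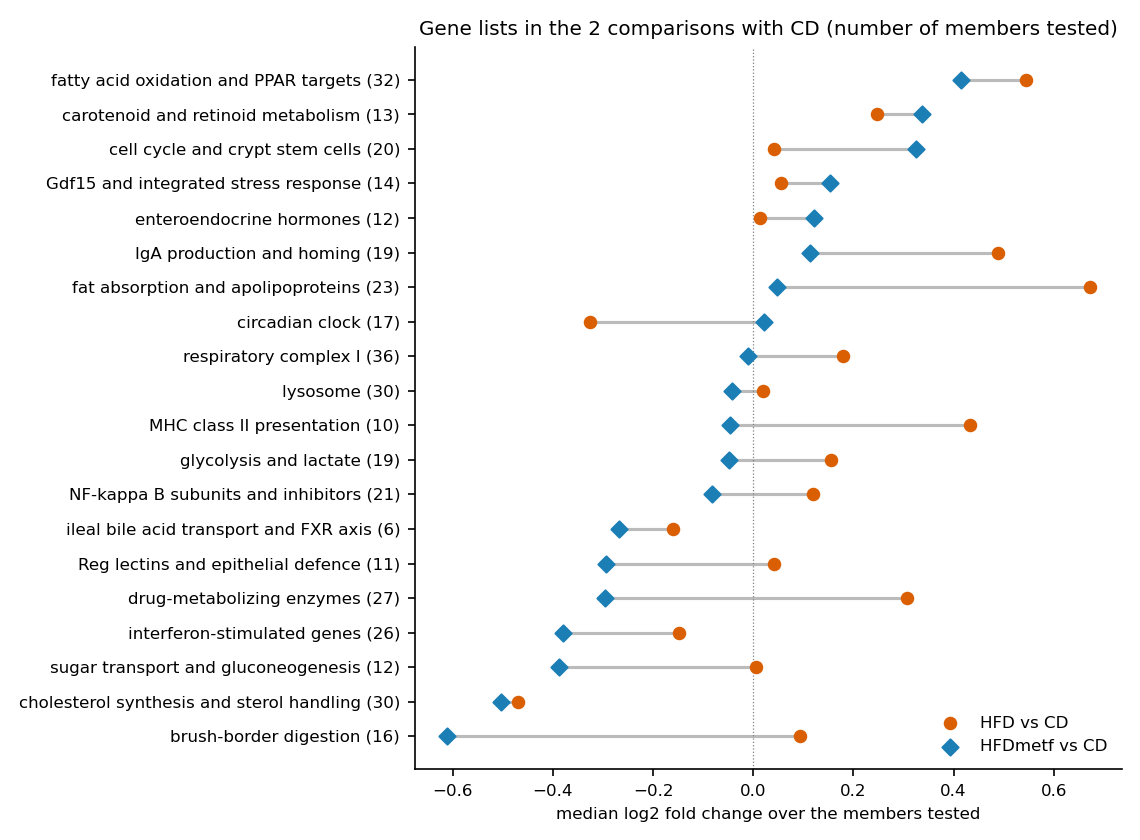
Median log2 fold change over the tested members of 20 function lists, HFD vs. CD (circles) and HFDmetf vs. CD (diamonds), with the number of members tested beside each name. Fatty acid oxidation (0.55 and 0.42) and cholesterol synthesis (−0.47 and −0.50) have both symbols on the same side of 0 at like distance, whereas fat absorption has its circle at 0.67 and its diamond at 0.05. Both comparisons use the same CD libraries.

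*Cyp4a10*, an omega-hydroxylase of fatty acids and a classical PPAR alpha target (ENSMUSG00000066072, GRCm38 chr4:115518264-115533649, plus strand), had the smallest p of all genes. It had no read in 5 CD libraries and 2 reads (0.164 CPM) in CD F1, whereas the HFDmetf libraries held 1.10 CPM at the lowest, 3.49 at the median and 10.6 at the highest. No HFDmetf library overlapped the CD group, although HFDmetf F2 (2 reads) and HFDmetf M3 (3 reads) rest on few counts. Summed over the groups there were 209 reads in HFDmetf and 2 in CD, a ratio of 98.9 per normalised library size (95% exact interval 27.0 to 822, for counting error only). The fitted logFC was 6.79 (SE 1.27, 95% interval 4.14 to 9.44, edgeR FDR = 0.356), and its size depends on how a group at nearly 0 is fitted. HFD libraries had 0 to 4.63 CPM (median 2.81), and HFDmetf against HFD gave a logFC of 0.93 (95% interval −0.70 to 2.55). HFD against CD gave 5.86, whereas HFD against CDmetf gave 1.62, with an interval that includes 0 (given below). CDmetf, also on the control diet, was thus fitted above CD, and the near absence of reads describes the CD group.

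*Acaa1b*, a peroxisomal thiolase of the last step of beta oxidation (ENSMUSG00000010651, chr9:119148023-119157093, minus strand), also separated the groups. CD libraries lay at 1.31, 1.92 and 3.30 CPM (lowest, median, highest) and HFDmetf libraries at 3.80, 5.71 and 18.1, the last of these in HFDmetf M1. The logFC was 1.77 (95% interval 0.76 to 2.78, edgeR FDR = 0.770). In HFD the median was 6.33 CPM, and HFDmetf against HFD gave 0.25 (−0.71 to 1.21). *Cyp4a10* and *Acaa1b* belong to families of near-identical genes, so reads shared with their relatives are not in these counts.

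*Plin2*, the coat protein of lipid droplets, was at 30.5, 43 and 50.1 CPM in CD and at 45.8, 62.6 and 110 in HFDmetf (logFC = 0.76, SE 0.21, 0.32 to 1.19). HFDmetf M3, the lowest of its group, lay within the CD range and the other 5 libraries lay above it. *Acadl*, the long-chain acyl-CoA dehydrogenase of mitochondria, was at 39.5, 53.2 and 94.6 CPM in CD and 66.5, 119 and 140 in HFDmetf (logFC = 0.90, 0.32 to 1.47).

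Other members that were higher at the unadjusted threshold cover the steps of mitochondrial oxidation, among them *Slc25a20*, which carries acylcarnitines across the inner membrane (0.60), *Acadvl*, the very-long-chain dehydrogenase (0.53), *Hadha* and *Hadhb*, both subunits of the trifunctional protein (0.50 and 0.46), *Eci2* (0.57) and *Etfdh* (0.35), which passes the electrons on to ubiquinone. *Hsd17b4*, the peroxisomal bifunctional enzyme (0.56), and the thioesterases *Acot1* (1.54) and *Acot2* (1.12), which are near-identical copies, were also among the 15. So was *Pdk4*, a kinase that inhibits pyruvate dehydrogenase (1.15). Not every member followed. The logFC of *Ehhadh*, a bifunctional enzyme of peroxisomes, was 0.02 and that of the thiolase *Acaa1a* 0.06. *Cpt1a*, the gate of mitochondrial oxidation, gave 0.36 (−0.08 to 0.81) and *Ppara* itself 0.37 (−0.10 to 0.84). *Pex11a*, a PPAR target of peroxisome division, was the single member lower in HFDmetf than in HFD (−0.54, −1.01 to −0.07), and its logFC against CD was 0.09 (95% interval −0.38 to 0.55) with the drug and 0.63 (0.16 to 1.09) without it.

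**Figure D2:**
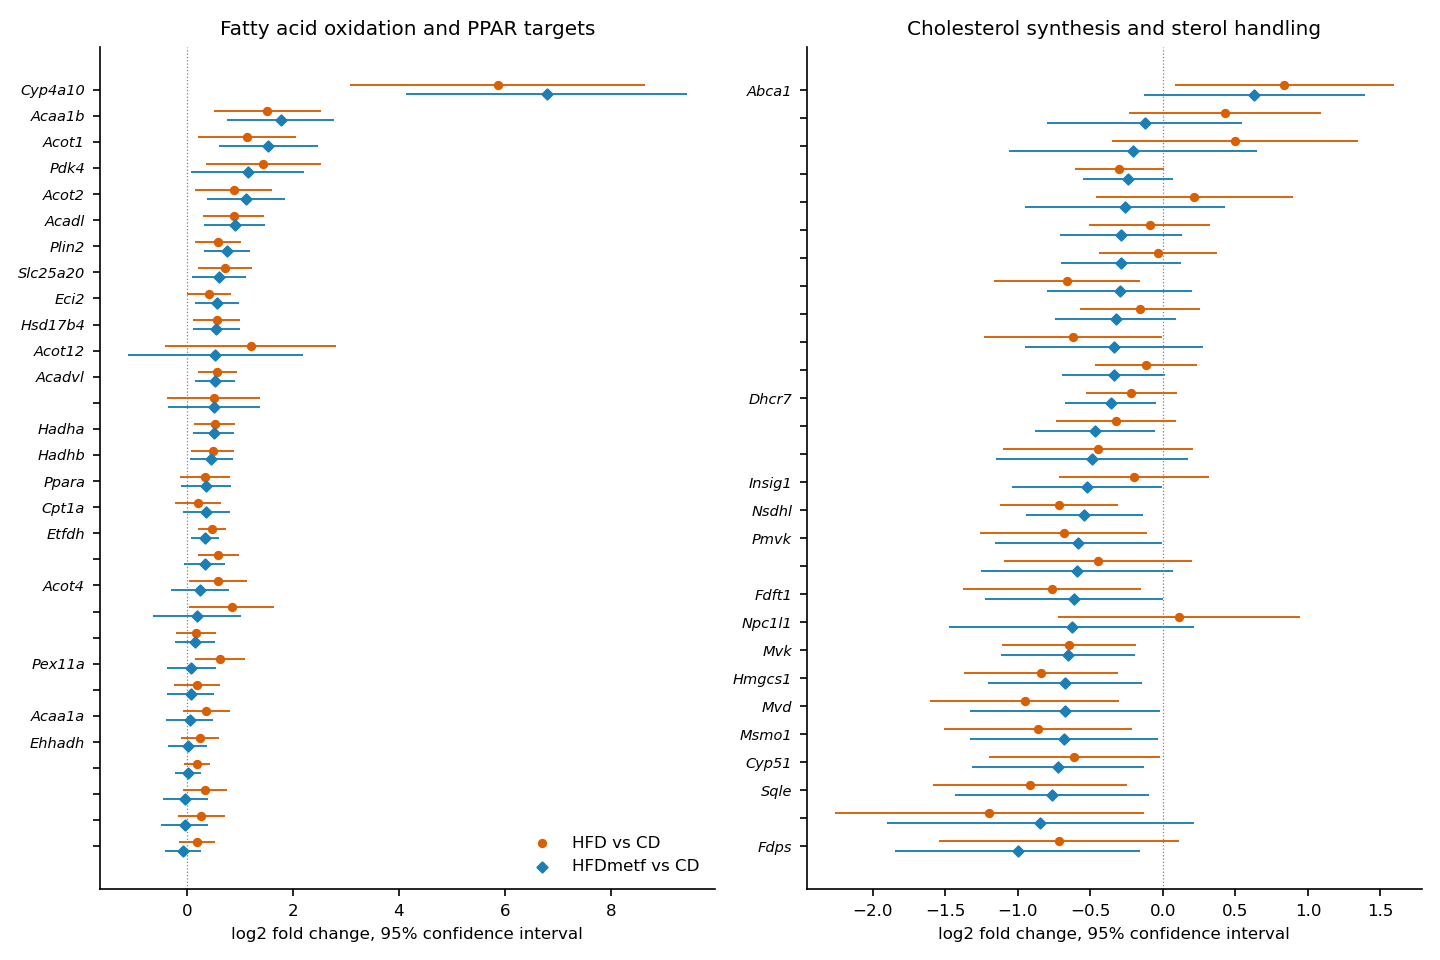
Log2 fold change with 95% interval of 30 tested members of the fatty acid oxidation list and 28 of the cholesterol list, HFDmetf vs. CD (diamonds) and HFD vs. CD (circles), with the symbols of the genes named in the text. In the first list 27 of the members plotted lie above 0 with the drug and 30 without it, and in the second 27 lie below 0 with the drug.

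The proximal 250 bases before the start of *Plin2* and of *Hmgcs1*, a gene of the cholesterol list described next, are shown as examples of the control regions of these gene groups. The *Plin2* sequence is chr4:86670060-86670309 on the minus strand and the *Hmgcs1* sequence chr13:119690101-119690350 on the plus strand (RefSeq, GRCm38.p6). Capitals mark, in *Plin2*, a match on the opposite strand to the PPAR type direct repeat (AGGTCA repeated with 1 base between, up to 2 mismatches) and, in *Hmgcs1*, a match to the sterol element TCACNCCAC.
Plin2: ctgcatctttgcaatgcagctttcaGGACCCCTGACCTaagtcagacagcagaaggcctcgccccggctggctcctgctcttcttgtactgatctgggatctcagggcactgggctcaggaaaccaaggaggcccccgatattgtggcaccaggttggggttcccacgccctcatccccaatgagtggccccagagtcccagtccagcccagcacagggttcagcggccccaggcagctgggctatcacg
Hmgcs1: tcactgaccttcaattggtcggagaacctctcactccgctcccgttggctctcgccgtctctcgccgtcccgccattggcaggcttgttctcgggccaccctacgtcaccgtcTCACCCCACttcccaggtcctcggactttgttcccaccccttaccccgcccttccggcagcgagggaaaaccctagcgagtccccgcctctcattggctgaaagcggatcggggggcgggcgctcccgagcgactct
Both strands were searched. The direct repeat was found in 3.24% of all 32851 promoters of this length and in 3 of the 25 oxidation genes with a promoter sequence (*Plin2*, *Acot4* and *Acot12*), the single element AGGTCA in 14% and in 6 of 25, and the sterol element in 1.05% and in 1 of the 21 cholesterol genes with a sequence (*Hmgcs1*). The sterol element was also found in 1 of the 25 oxidation genes (*Ehhadh*). Of the 21 cholesterol genes, 4 held the single element and 0 the direct repeat. A direct repeat that matches in full also holds the single element, so these counts overlap. The promoters of *Apoa4* and *Acaa1b* held none of these letters in this window. A match describes the sequence only.

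Genes of cholesterol synthesis were lower in HFDmetf than in CD. Of 30 list members, 14 were lower at the unadjusted threshold and none higher (beside 1.88% of all genes lower), 29 lay below 0, and the median logFC was −0.50. HFD against CD gave 14 lower and 1 higher (beside 1.93% lower and 2.82% higher of all genes) with a median of −0.47, where the 14 became 9 without CD F1 or without CD F3. HFDmetf against HFD gave 0 in either direction with a median of −0.08. The level of the list per library was −0.58 to 0.25 in CD (median 0.12) and −0.89 to −0.02 in HFDmetf (median −0.55), with CD M3 the lowest of its group and HFDmetf M1 the highest of its own. The count of 14 depended on single animals: it was 4 without HFDmetf M2, without HFDmetf M3 or without CD F3, 5 without CD F1 and 6 without HFDmetf F1 or without CD M2, whereas the median was between −0.62 and −0.41 when each of the 12 libraries was left out. It was 20 without both CD M3 and HFDmetf F2, and 3 with the level of distal enterocyte markers as a covariate (median −0.32).

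The members followed the pathway from its first committed steps. *Hmgcs1*, which makes HMG-CoA (ENSMUSG00000093930, chr13:119690379-119708260), was at 203, 300 and 406 CPM in CD and at 120, 173 and 247 in HFDmetf (logFC = −0.67, 95% interval −1.20 to −0.14, edgeR FDR = 0.962). CD M1 and CD M3 were the only CD libraries within the HFDmetf range. *Mvk*, mevalonate kinase, was at 13, 19.5 and 28.7 CPM in CD and 6.95, 13.1 and 19.1 in HFDmetf (−0.66, −1.12 to −0.19), and *Sqle*, which oxidises squalene on the way to sterols, at 59.6, 104 and 142 and at 32.6, 50.5 and 99.0 (−0.76, −1.43 to −0.09). The ranges of both genes overlapped, at *Sqle* through CD M1 and CD M3 on one side and HFDmetf M1 and HFDmetf F2 on the other.

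Further down, *Fdps* (−1.0), *Fdft1* (−0.62), *Cyp51* (−0.72), *Msmo1* (−0.68), *Nsdhl* (−0.54, −0.95 to −0.14) and *Dhcr7* (−0.36) were lower as well, as was *Insig1*, the sterol-sensing partner that retains SREBP in the endoplasmic reticulum (−0.52, −1.04 to −0.01). Genes for sterol uptake and export gave wider intervals. *Npc1l1*, the cholesterol importer of the brush border, gave −0.63 (−1.48 to 0.22). *Abca1*, the exporter to HDL, was the member above 0 (0.63, −0.13 to 1.39), and it was the single higher member in HFD against CD (0.84, 0.08 to 1.59).

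Fat absorption behaved otherwise. Of 23 tested members, 2 were higher in HFDmetf than in CD (8.70%, beside 2.76% of all genes) and none lower, with a median logFC of 0.05 and 12 members above 0 against 11 below. The median lay between −0.25 and 0.23 when each of the 12 libraries was left out, at −0.14 with limma-voom and at −0.06 without the replicate block. The 2 became 0 without CD M3, without CD F3, with limma-voom or without the replicate block, 1 without HFDmetf F1, CD F1, HFDmetf M2 or HFDmetf M3, and 3 without CD M1, HFDmetf M1 or HFDmetf F2. In HFD against CD 8 were higher (34.8%, beside 2.82%), all 23 lay above 0 and the median was 0.67. In HFDmetf against HFD 3 were lower (13%, beside 3.78%), 22 lay below 0 and the median was −0.62. By library the list ranged from −0.76 to 0.77 in CD, from −1.52 to 0.60 in HFDmetf and from −0.29 to 1.39 in HFD, with HFDmetf F2 the lowest of all these and CD M1 the highest of its group. The 8 became 5 without HFD M3. The 3 became 12 without HFDmetf M2 or without HFD F3, 9 without HFDmetf M3, and 1 without any 1 of HFDmetf F1, HFDmetf M1, HFDmetf F2, HFD M1, HFD F1, HFD F2 or HFD M3. The 14 markers of proximal enterocytes had a summed level with a median of 1707 CPM in CD, 5450 in HFD and 2276 in HFDmetf, and all ranges overlapped. The fat absorption list also holds 3 of them (*Apoa4*, *Fabp1* and *Apoc3*), which carry much of this sum. The other 11 had a median of 1543 CPM in CD (197 to 4205), 1907 in HFD (740 to 4050) and 1350 in HFDmetf (153 to 2753), and of the 10 tested among them 2 were higher in HFD against CD, 0 in HFDmetf against CD, and 1 was lower in HFDmetf against HFD. The part of these cells in the result was not tested.

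*Apoa4*, the apolipoprotein of chylomicrons that follows fat intake (ENSMUSG00000032080, chr9:46240696-46243459, plus strand), was at 36, 97.6 and 875 CPM in CD, at 97.3, 527 and 1752 in HFDmetf and at 88.6, 2461 and 6723 in HFD. The groups overlapped: CD M1 was high in its group, and HFDmetf F2 and HFDmetf M1 were low in theirs. HFDmetf against CD gave a logFC of 2.46 (95% interval 0.33 to 4.59, edgeR FDR = 0.962), HFD against CD 4.09 (1.83 to 6.34) and HFDmetf against HFD −1.62 (−3.63 to 0.38).

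*Lpcat3*, which remodels the phospholipids of the chylomicron surface, was at 157, 209 and 255 CPM in CD, at 104, 216 and 333 in HFDmetf and at 236, 357 and 453 in HFD. Its HFDmetf median lay next to that of CD, and its logFC against CD was 0.13 with the drug (95% interval −0.35 to 0.61) and 0.76 without (0.29 to 1.24), with −0.63 between HFDmetf and HFD (−1.11 to −0.15). *Fabp2*, the intestinal fatty acid binding protein, gave 0.21 with the drug (−0.89 to 1.31) and 1.22 without (0.13 to 2.32). *Apob*, the structural protein of chylomicrons, gave −0.09 (−0.96 to 0.78) with the drug and 0.78 (−0.08 to 1.65) without, and −0.87 between HFDmetf and HFD (−1.74 to −0.0028). *Mttp*, which loads lipid onto ApoB, gave 0.10 with the drug and 0.82 without. With the drug the intervals against CD include 0 and also sizes near those of the diet without the drug, apart from *Lpcat3*. *Fabp1*, the liver-type binding protein, gave 2.70 (−0.07 to 5.48) with the drug and 4.21 (1.35 to 7.06) without, and *Slc27a2*, a fatty acid transporter and acyl-CoA synthetase, 0.60 (0.01 to 1.19) and 1.00 (0.41 to 1.59). The HFDmetf median lay between those of CD and HFD for both genes, at 125 CPM between 32.1 and 239 for *Fabp1* and at 36.8 CPM between 25 and 53.8 for *Slc27a2*.

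**Figure D3:**
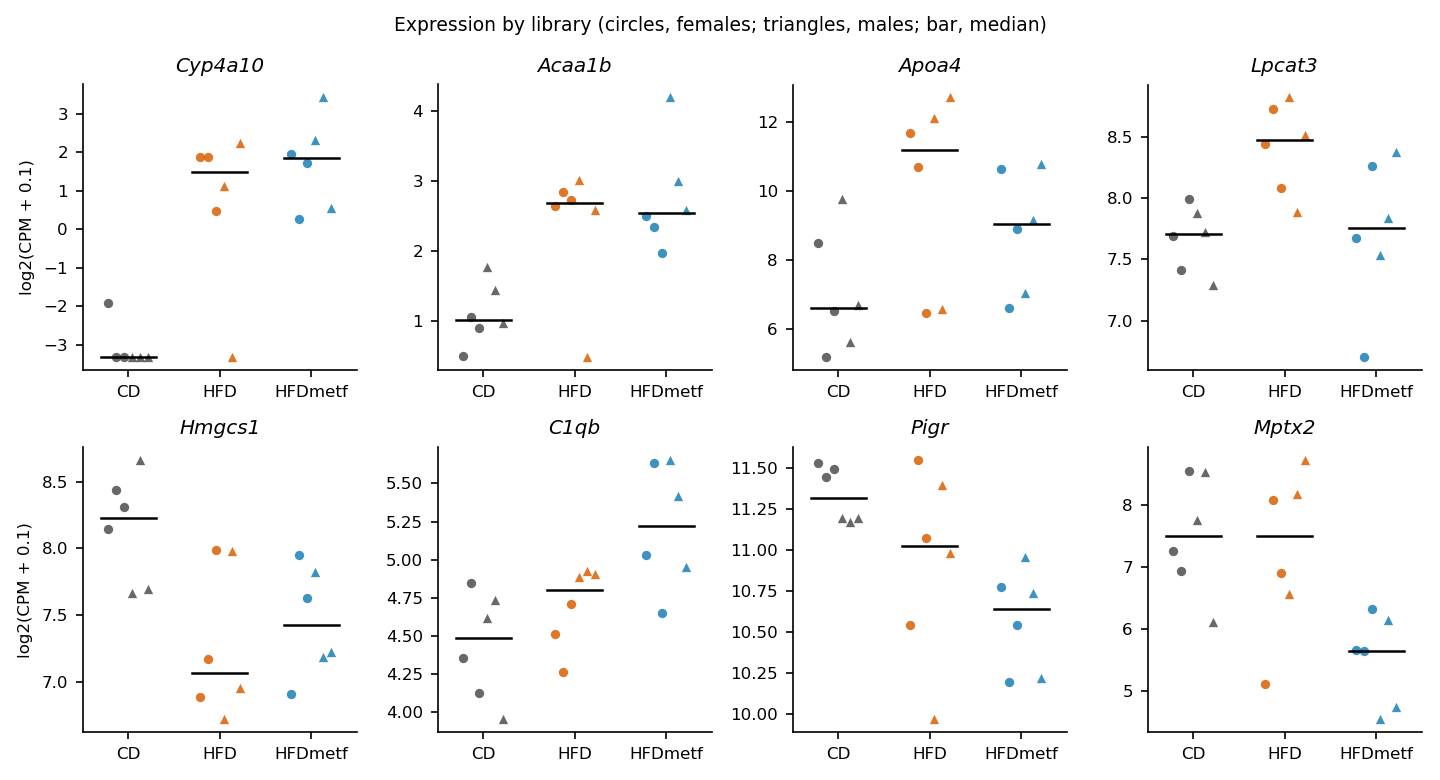
Level of 8 genes in every library of CD, HFD and HFDmetf, as log2(CPM + 0.1), circles for females and triangles for males by label, with a bar at the median. *Cyp4a10* and *Acaa1b* separate HFDmetf from CD in all libraries, *Lpcat3* is near the CD level in HFDmetf, and *Mptx2* and *Pigr* have their lowest median in HFDmetf.

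Retinoid genes split. *Retsat*, retinol saturase, was at 21.9, 39.2 and 63.0 CPM in CD and 33.5, 108 and 139 in HFDmetf, with HFDmetf F2 alone inside the CD range (logFC = 1.27, 0.47 to 2.06), and HFD against CD gave 1.32. *Bco1*, which cleaves beta-carotene, was at 4.66, 23.3 and 74.0 CPM in CD and 1.65, 5.72 and 21.7 in HFDmetf (−1.79, −3.08 to −0.50), and HFD against CD gave −2.04. *Rbp2*, the retinol binding protein of enterocytes, gave 1.06 with the drug (−0.62 to 2.73) and 2.56 (0.81 to 4.32) without it. *Cyp26b1*, which degrades retinoic acid, was higher with the drug (1.41, 0.34 to 2.47), and *Aldh1a2*, which makes it, did not overlap between the groups (9.32 to 11.6 CPM in CD, 12.8 to 16.5 in HFDmetf, logFC = 0.42). In all, 3 of 13 tested members were higher and 1 lower against CD (beside 2.76% and 1.88% of all genes), and 2 and 1 in HFD against CD (beside 2.82% and 1.93%).

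Several other functions gave few or no members at the unadjusted threshold in HFDmetf against CD. Glycolysis and lactate had 4 of 19 genes higher in HFD against CD (beside 2.82% of all genes) and 1 in HFDmetf against CD (beside 2.76%), *Pfkl*, the liver-type phosphofructokinase (0.55, 0.18 to 0.93). The lactate exporter *Slc16a3* gave 1.28 without the drug and 0.10 with it. The 4 became 2 without HFD M1 or without HFD M3. Of 27 drug-metabolizing enzymes, 1 was higher and 2 lower in HFD against CD (beside 2.82% and 1.93% of all genes), with 20 above 0 and 7 below. None was at the threshold in HFDmetf against CD (median −0.30). HFD against CDmetf gave 9 higher and 1 lower (beside 4.85% and 2.44%). The 9 became 3 without CDmetf M3, 4 without HFD F2 or HFD M3, and 5 without CDmetf M1. The 6 genes of ileal bile acid transport had none at the threshold (median −0.27). Of 12 genes of sugar transport and gluconeogenesis none was at the threshold, but 11 lay below 0 (median −0.39), and *Slc5a1*, the sodium-glucose cotransporter, gave −0.94 (−1.93 to 0.05). Of 36 subunits of complex I, none was at the threshold in HFDmetf against CD (median −0.01). In HFDmetf against HFD 4 were lower (beside 3.78% of all genes, median −0.20), led by *Ndufa1* (−0.71, −1.19 to −0.22). That count was 1 without HFD M3, 2 without HFD F2, 7 without HFDmetf M3 and 10 without HFD F3. Genes of the integrated stress response (14), the circadian clock (17) and enteroendocrine hormones (12) had none at the threshold in HFDmetf against CD. Most of these lists also had few members at the threshold for the diet without the drug. In HFD against CD, bile acid transport, sugar transport and enteroendocrine hormones had none at the threshold. Complex I and the stress response had 1 higher each, and the clock 1 higher and 2 lower (beside 2.82% and 1.93% of all genes). By sign, 35 of the 36 complex I members lay above 0 in HFD against CD (median 0.18). In HFDmetf against HFD 33 lay below 0, and in HFDmetf against CD 16 lay above and 20 below. By library the complex I level in HFD had a median of −0.02, with HFD F2 the highest at 0.76.

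Several lists of immune genes had members at the threshold in HFD against CD and few in HFDmetf against CD, counts that rested on single HFD libraries. MHC class II presentation had 3 of 10 members higher in HFD against CD (*H2-Aa* 0.43, *H2-DMb2* 1.56 and *H2-Ob* 1.63, beside 2.82% of all genes) and 0 in HFDmetf against CD, where the median was −0.05. Genes of IgA production and homing had 5 of 19 higher in HFD against CD, among them the BAFF receptor *Tnfrsf13c* (1.95), and 1 higher and 1 lower in HFDmetf against CD (beside 2.76% and 1.88%). Both lists were also raised in CDmetf. The median level per library was 0.511 in HFD and 0.525 in CDmetf for class II, and 0.375 and 0.486 for IgA. HFD against CDmetf gave 0 class II members at the threshold (median logFC −0.06). For IgA it gave 2 higher and 0 lower (beside 4.85% and 2.44%, median −0.03). The 14 B-cell markers had 11 higher in HFD against CD (beside 2.82%), 0 in either direction in HFDmetf against CD (median −0.38), and 14 lower in HFDmetf against HFD (beside 3.78%). Their summed level was 19.2 to 105 CPM in CD, 17.5 to 47.3 in HFDmetf and 26.2 to 438 in HFD, and the highest HFD value was that of the library HFD F1 alone. In CDmetf the summed level was 23.1 to 522 CPM, highest in CDmetf F2, with a median of 93.9 beside 56.4 in HFD. HFD against CDmetf gave none of these markers at the threshold (beside 4.85% higher and 2.44% lower of all genes), with a median logFC of −0.28. Without HFD F1 the 11 became 0 and the 14 became 2. Without HFD M2 they became 1 and 3, the 11 became 5, 6 and 7 without CD M1, CD F2 and CD F3, and the 14 became 9 without HFDmetf F1. The 3 class II genes became 0 without HFD F1 or HFD M2, 1 without CD M1 or CD F3 and 5 without HFD M3, and the 5 IgA genes became 2 without HFD F1, 1 without HFD M2, 3 without CD F3 and 8 without HFD F2. *Duox2* and *Duoxa2*, the hydrogen peroxide producing oxidase of the epithelium and its maturation factor, gave 0.23 (−0.78 to 1.24) and 0.01 (−1.27 to 1.29) with the drug, and 1.29 (0.26 to 2.33) and 1.65 (0.35 to 2.96) without it. The NF-kappa B list had 0 of 21 members at the threshold in either comparison with CD, and *Rela*, *Rel* and *Nfkb1* gave 0.02, −0.07 and −0.11 with the drug.

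*Mptx2* and *Pigr* were lower in HFDmetf than in CD at the unadjusted threshold. *Mptx2*, a pentraxin of Paneth cells, was at 68.9, 184 and 377 CPM in CD, at 23.1, 50.1 and 80.4 in HFDmetf and at 34.6, 196 and 427 in HFD. All HFDmetf libraries lay below the CD group except HFDmetf M2 and HFDmetf F3, which passed CD M3 only. Its logFC was −2.13 against CD (95% interval −3.17 to −1.08, edgeR FDR = 0.635) and −1.89 against HFD (−2.95 to −0.83), while HFD against CD gave −0.24. It shares reads with a near-identical relative, so its counts are uncertain. *Pigr*, the receptor that carries IgA across the epithelium, did not overlap between the groups, with 2306, 2568 and 2955 CPM in CD and 1168, 1603 and 1992 in HFDmetf (−0.72, SE 0.27, −1.29 to −0.15). HFD spanned both, from 1001 to 3003 CPM (−0.34 against CD, −0.90 to 0.23). The IgA heavy chain *Igha* and the joining chain *Jchain* gave 0.27 and 0.20.

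Interferon-stimulated genes had 7 of 26 members lower in HFDmetf against CD and none higher (beside 1.88% lower), 22 lay below 0 and the median was −0.38, where HFD against CD gave none at the threshold and a median of −0.15. HFDmetf against HFD gave 2 lower (beside 3.78%) and a median of −0.27. HFD against CDmetf, which shares no library with HFDmetf against CD, gave 5 of 26 lower (beside 2.44%) and a median of −0.37, with 0 genes at the threshold in both. Of those 5 genes, 2 lay below 0 in HFDmetf against CD, and the median of the 5 there was 0.16. The 7 lower in HFDmetf against CD were *Oas3* (−1.10), *Mx1* (−1.01), *Oasl2* (−0.87), *Ddx60* (−0.73), *Oas1a* (−0.69), *Ifih1* (−0.43) and *Irf9* (−0.38). They sense or block viral RNA or, in the case of *Irf9*, carry the interferon signal. *Oas1a*, which has close copies, did not overlap (6.05 to 13.5 CPM in CD, 2.75 to 5.44 in HFDmetf). The 7 became 1 without CD M1, 2 without HFDmetf M1 or HFDmetf M2, 3 without CD F1 or HFDmetf F2, 4 without CD F2 and 11 without CD M3, with the median between −0.46 and −0.29. In the list of epithelial defence, the bactericidal lectin *Reg3g* (−1.01, −1.93 to −0.09) and the inducible nitric oxide synthase *Nos2* (−1.30, −2.48 to −0.11) were lower against CD, and HFD against CD gave 0.03 and −0.53.

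Macrophage genes were higher in HFDmetf than in CD. Of 10 markers, 7 were higher against CD and none lower (beside 2.76% of all genes higher), all 10 lay above 0, and the median logFC was 0.66, against 0 at the threshold and a median of 0.28 in HFD against CD, and 0 and −0.16 in HFD against CDmetf. In HFDmetf against HFD the complement genes *C1qa*, *C1qb* and *C1qc* were higher (beside 3.09% of all genes), and this count of 3 became 1 without HFD M2, HFD F2 or HFDmetf F2, 6 without HFD F3 and 0 without both HFD M2 and HFD F2. The 7 stayed at 7 or 8 when each library was left out. *C1qb* was at 15.4, 22.5 and 28.7 CPM in CD, at 25, 37.6 and 50.3 in HFDmetf and at 19.1, 27.8 and 30.3 in HFD, and HFDmetf F3 was the only library of its group within the CD range (logFC = 0.78, SE 0.17, 0.42 to 1.14, edgeR FDR = 0.635). *Adgre1*, the surface protein F4/80, gave 0.90, the endosomal *Cd68* 1.13, the receptor *Csf1r* 0.60 and the lysozyme *Lyz2* 0.71, whereas *Cx3cr1* gave 0.13 and *Cd163* 0.31. The summed level of the markers was 156 to 270 CPM in CD (median 172), 218 to 412 in HFDmetf (median 295) and 159 to 282 in HFD (median 237). In CDmetf it was 215.3 to 358.5 CPM (median 272), so a level above that of CD was not particular to HFDmetf.

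Genes named by their p or by groups that did not overlap, and outside this list, included 6 that are known from macrophages or other leukocytes. They were put side by side after their values were seen, and no list of such genes was tested. *Trem2*, a lipid-sensing receptor of macrophages, was at 0.373, 0.607 and 1.32 CPM in CD and 1.36, 3.24 and 15.1 in HFDmetf (logFC = 2.65, SE 0.63, 1.34 to 3.97), and HFD lay between at 0.443, 1.22 and 4.43. *Ptafr*, the receptor for platelet-activating factor, was at 1.31, 2.81 and 3.51 CPM in CD and 3.63, 6.75 and 11.4 in HFDmetf (1.43, 0.75 to 2.10), and HFD against CD gave 1.46. *Itgax*, the integrin CD11c, was at 13.3, 16.1 and 17.8 and at 20.0, 28.4 and 36 CPM (0.79). These 3 genes did not overlap between the groups. At *Trem2* the gap was narrow, from 1.32 CPM at the highest in CD to 1.36 at the lowest in HFDmetf. At the depth of HFDmetf M3, 1.36 CPM is 3 reads. *Slc11a1*, a metal transporter of phagosomes, gave 0.99, *Fcgr3*, an Fc receptor, 1.02 and *Myo1f* 1.13.

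**Figure D4:**
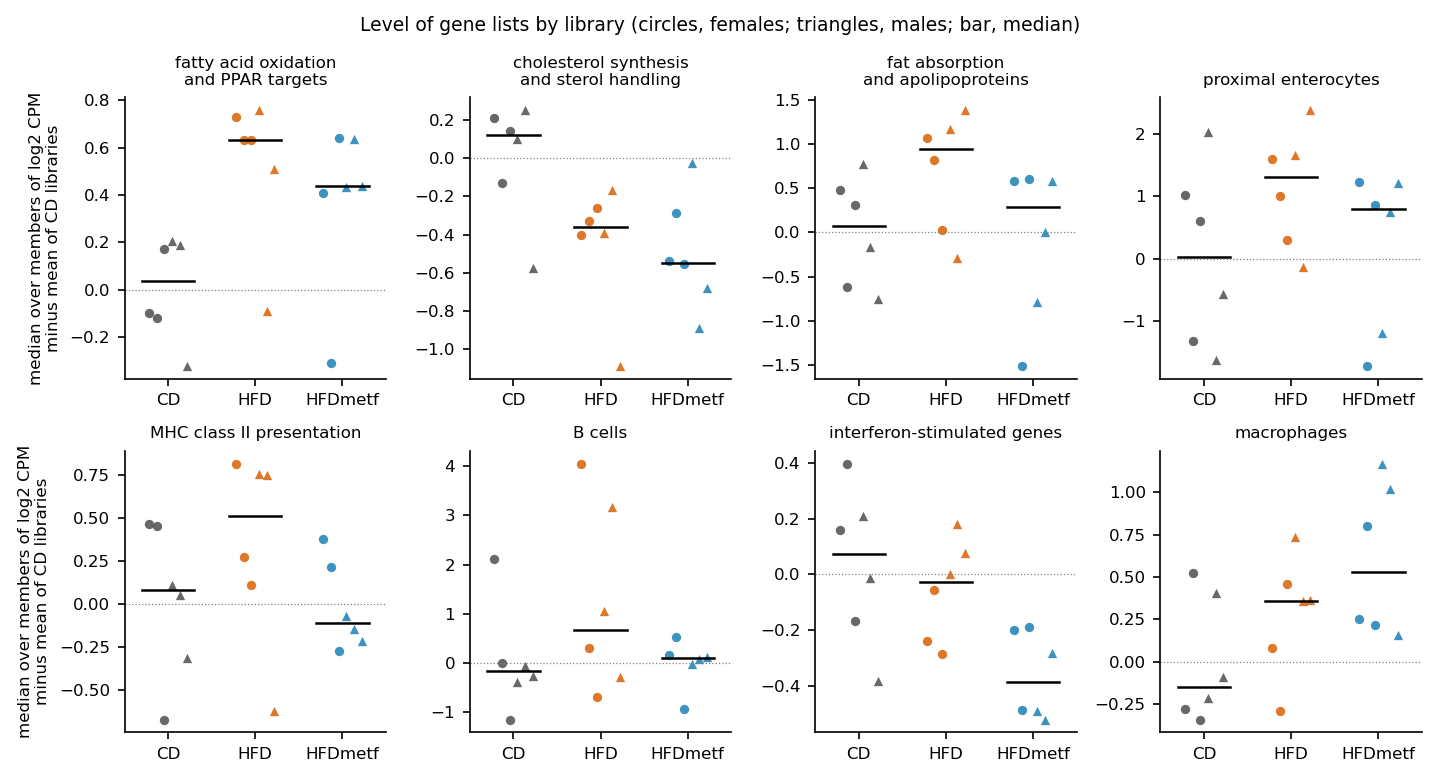
Level of 8 gene lists in every library of CD, HFD and HFDmetf, as the median over list members of log2 CPM minus the mean of the CD libraries. Fatty acid oxidation is higher in 5 of 6 HFDmetf libraries than in any CD library, macrophage markers reach 0.16 to 1.17 in HFDmetf, and B-cell markers reach 4.05 in HFD F1.

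Epithelial digestion and renewal gave small counts. Brush-border digestion had 3 of 16 members lower against CD, beside 1.88% of all genes (*Mgam*, a glucosidase of starch, −0.73, and the peptidases *Enpep* −0.74 and *Dpep1* −0.63) with 14 below 0 and a median of −0.61, where HFD against CD gave 0.09. The cell cycle list had 3 of 20 higher, beside 2.76% (*Mcm2*, *Mcm5* and *Rrm2*, of DNA replication) with 18 above 0 and a median of 0.32. Both counts moved with single libraries: the first was 11 without CD M3, 7 without HFDmetf F3 and 0 or 1 without CD M1, CD F1, HFDmetf M1, HFDmetf M2, HFDmetf F2, CD M2, CD F2 or CD F3. The second was 13 without HFDmetf M3, 6 without CD M3, 1 without HFDmetf F3, and 0 without HFDmetf F1, CD M1, CD F1, HFDmetf M1, HFDmetf M2 or CD F2. Of the 8 epithelial markers none was at the threshold (median −0.26), and their summed level was 7866 to 12400 CPM in CD and 5892 to 12000 in HFDmetf.

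The groups did not overlap in 17 genes higher in HFDmetf (0.126% of the genes tested) and 7 lower (0.0518%). Besides *Cyp4a10*, *Acaa1b*, *Trem2*, *Ptafr*, *Itgax* and *Aldh1a2*, the higher genes included *Vcam1*, the vascular adhesion molecule, *Agt*, angiotensinogen, and *Slc22a3*, an organic cation transporter. The lower genes were *Pigr*, *Oas1a*, *Sytl5*, *Ing1*, *Prodh*, *Aldoc* and *Tnfaip8*. The total of 24 became 75 without HFDmetf M3, 71 without CD M3, 64 without HFDmetf F3, 48 without CD F3, 46 without CD F2 and 39 without HFDmetf F2, where fewer libraries also leave fewer chances to overlap. The difference between HFDmetf and CD was tested for dependence on sex as an interaction. By edgeR 0 of 14402 genes passed FDR < 0.05, 222 had an unadjusted p under 0.05, and DESeq2 gave 4 (Mir6236, *Lars2*, Gm15564 and CT010467.1), all among the 10 most counted genes of CD M3.

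The remaining 12 libraries give a comparison of the diets that shares no animal with HFDmetf against CD, although the drug is then on the control side: HFD against CDmetf, with 655 genes higher (4.85%) and 329 lower (2.44%) at the unadjusted threshold and 0 at FDR < 0.05 by edgeR (0 by limma-voom, 6 by DESeq2 and 450 with the weights). Of the 373 genes higher in HFDmetf against CD, 33 were also higher there (8.85% of the 373 and 5.04% of the 655) and 6 were lower, and 189 lay above 0 (50.7%, beside 53% of all genes). Of the 254 lower genes, 28 were also lower (11.0% of the 254 and 8.51% of the 329) and 2 were higher, and 171 lay below 0 (67.3%, beside 47.0% of all genes). By function, 14 cholesterol genes were lower in HFD against CDmetf, all 14 lay below 0 in HFDmetf against CD, and 9 were at the threshold in both, among them *Hmgcs1*, *Pmvk*, *Mvd*, *Fdft1*, *Sqle*, *Cyp51*, *Msmo1* and *Nsdhl*. Of 10 oxidation genes higher there, 9 lay above 0 in HFDmetf against CD and 4 were at the threshold in both (*Acadvl*, *Eci2*, *Etfdh* and *Hsd17b4*). The median logFC of the 10 was 0.22 in HFDmetf against CD and 0.50 in HFD against CDmetf. Of 13 fat absorption genes higher there, 10 lay above 0 in HFDmetf against CD and 2 were at the threshold in both (*Apoa4* and *Slc27a2*). The medians of the 13, in the same order, were 0.13 and 1.06, and those of the 14 cholesterol genes −0.60 and −0.80. Single animals moved these counts too: the 14 became 9 without CDmetf M2, the 10 became 3 without HFD F2, 4 without CDmetf M3, 5 without CDmetf M2, 6 without CDmetf F2 and 17 without HFD M2, and the 13 became 6 without HFD F2 or CDmetf M3, 7 without HFD M3 or CDmetf M1 and 8 without CDmetf M2. *Cyp4a10* gave 1.62 (−0.19 to 3.42) and *Acaa1b* 0.73 (−0.24 to 1.71) in this comparison.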

How the data were processed

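RNA from 24 tissue pieces was depleted of ribosomal RNA, made into directional libraries and sequenced in pairs. The authors trimmed reads with Trimmomatic 0.39 (window 5, quality 25, minimum length 30), mapped them to GRCm38 and counted them per gene with STAR 2.5.3a, and deposited the raw counts of 55536 genes. The annotation release and the strand counted are not given in the sources used here, so overlapping and antisense genes are uncertain. The 24 columns were matched to samples by name, with 0 columns of other samples. The totals per library run from 1829690 to 27226092 in the 12 libraries compared and set the precision of low genes.

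Counts were analysed with edgeR 4.0.16 and limma 3.58.1 in R 4.3.3. Genes were kept by filterByExpr on the 4 groups (13505 genes), scaled by TMM and fitted in 1 quasi-likelihood model with terms for group, sex and replicate number over the 24 libraries. The study used limma-voom, an alternative here, with sex and sequencing block as covariates, and whether the replicate number is that block is not given in the sources used here. The Benjamini-Hochberg threshold was 0.05. Standard errors and 95% intervals come from the F statistic. Gene positions are those of GENCODE M21, and 562 of 563 symbols of the lists were found. On simulated data with 200 changed genes the test called 61.0% at a log2 change of 1 (13470 genes), 95.0% at 2 (13468 genes) and 98.5% at 3 (13429 genes), and 2.40%, 3.06% and 3.43% of the calls were unchanged genes. These counts were drawn independently for each gene around a common mean, with the dispersions and library sizes of the data. Effects of sex, replicate and cell content and libraries such as CD M3 were not simulated, so the shares called need not hold for the real libraries.

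The members, the gene lists and the tests were chosen with earlier results of these data known, and the sterol element was added after values were seen. Lists are described by counts and medians, with no set test. Genes named are the 3 given with the comparison, those with the 10 smallest p in each direction (leaving out immunoglobulin and T-cell receptor segments and predicted genes), in each list those with the smallest p against CD with and without the drug, and the defining members of a list. Some genes that this rule takes are not reported here. Genes of the counts at 5 or fewer, and those whose groups did not overlap, were named after their values were seen. Alternatives were limma-voom with and without sample quality weights, DESeq2 1.42.0, RLE scaling, other filters, no replicate block, no sex term, robust fitting, only the libraries compared, marker scores as covariates, removal of the 702 immunoglobulin and T-cell receptor segments, and leaving out libraries. Fits without both CD M3 and HFDmetf F2, and the filter with the full design, were added after seeing the data.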

Additional observations from a re-analysis of the deposited data

Results flagged for a closer look

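In 15 of 176 groups of 6 libraries checked (86 named genes in CD and HFDmetf and measures of the libraries), 1 library lay far from the others of its group by Dixon's 95% limit. Chance alone marks about 1 in 20 such groups. Both values of the share of reads on the 10 most counted genes were of this kind, 85.4% in CD M3 (others 10.9% to 14.5%) and 36.6% in HFDmetf F2 (others 10.1% to 16.7%). CD M3 was also low in *Aldh1l1*, a folate enzyme (65.4 CPM, others 93.0 to 113), *Nos2* (50.1, others 115 to 187), the interferon-stimulated *Ifit3* (3.26, others 4.96 to 5.91), the lysosomal lipase *Lipa* (21.9, others 49.4 to 71.6) and *Enpep* (772, others 1970 to 2590). HFDmetf F2 was low in *Oas1a* (2.75 CPM, others 4.53 to 5.44) and *Lipa* (26.4, others 63.7 to 81.6). HFDmetf M3 was low in *Rrm2* (6.35 CPM, others 16.3 to 20.9) and in the stem cell gene *Smoc2* (29.9, others 53.9 to 73.8).

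Single values apart were those of *Cyp4a10* in CD F1 (0.164 CPM, the other CD libraries at 0), *Sytl5* in HFDmetf M2 (1.81, others 3.17 to 4.38), the costimulatory *Cd86* in CD F3 (3.03, others 2.02 to 2.33) and *Tcirg1*, a subunit of the vacuolar proton pump, in HFDmetf F3 (17.2, others 26.9 to 34.1).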

How the results depend on the processing

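The number of genes at FDR < 0.05 between HFDmetf and CD was 0 by edgeR in all alternatives except no filter on low counts (1, *Cyp4a10*) and only the 12 libraries compared (1, *Ighv1-72*), and it was 1 by limma-voom, 7 by DESeq2 and 834 by limma-voom with sample quality weights. With those weights HFD against CD gave 1425, HFDmetf against HFD 2429 and HFD against CDmetf 450, and DESeq2 gave 12, 0 and 6 and, for the sex difference, 4. Leaving out 1 library gave 0 by edgeR in all 4 comparisons. The 24 genes whose groups did not overlap became 14 with at least 10 counts in every library, and 30 to 75 when 1 library was left out. Samples with the same replicate number were not shown to pair: the 6 pairs of HFDmetf and CD correlated at −0.524 to 0.675 and 3 of them over 0.1, while over all groups the mean was 0.143 for 72 pairs with the same number and −0.0703 for 144 others. The 8 libraries of replicate 2 were all shallow (1829690 to 3466430 reads). Without the replicate block 0 genes passed in any comparison, and the genes at an unadjusted p under 0.05 between HFDmetf and CD were 486 in place of 627. With the smooth muscle level as a covariate they were 1047, and without CD M3 and HFDmetf F2 1114. The count of HFDmetf against HFD was 928, and 324 without HFD M2 and HFD F2 and 232 with the smooth muscle covariate. Of the 86 genes, 15 turned their sign under some setting, each with an interval that spans 0, and the cause was not tested. With the weights *Fgf15* gave −0.14, *G6pc* 0.69, *Mlxipl* 0.25, *Duoxa2* −0.54, *Duox2* −0.026, *H2-DMb1* 0.23, *Nfkbie* −0.23 and *Tnfrsf13b* −0.14. With limma-voom *Duoxa2* gave −0.066, *Tnfrsf13b* −0.054 and *Treh* −0.17. With the distal enterocyte covariate *Slc10a2* gave 0.47, *Duoxa2* −0.21, *Rel* 0.0072 and *Treh* −0.022, with the smooth muscle covariate *Duoxa2* −0.10 and *Treh* −0.058, and with the B-cell covariate *Duoxa2* −0.010. *Duoxa2* gave −0.070 without the sex term and −0.017 without HFD M2 and HFD F2, and *Mlxipl* 0.077 without CD M3 and HFDmetf F2. Leaving out 1 library moved *G6pc* from −0.65 to 0.44, *Mlxipl* from −0.37 to 0.12, *Hlf* from −0.50 to 0.060, *Duoxa2* from −0.14 to 0.28, *Rel* from −0.18 to 0.063, *Cd28* from −0.034 to 0.26, *Tnfrsf13b* from −0.067 to 0.27, *Treh* from −0.22 to 0.33, *Alpi* from −0.29 to 0.15 and *Lgr5* from −0.26 to 0.012. The other 71 of the 86 genes run under these settings kept their sign, and genes outside these 86 were not run. Low genes such as *Cyp4a10* in CD are limited by depth: 3 counts is the floor used, and CD held 2 reads of it in all.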

Other observations

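Among the 10 genes with the smallest p in each direction, several belong to none of the lists. *Myo1f*, a myosin of leukocytes, was at 3.92, 5.07 and 7.68 CPM in CD and 6.30, 10.7 and 19.2 in HFDmetf (logFC = 1.13), *Rab7b*, a small GTPase of late endosomes, at 2.10, 2.90 and 4.70 and at 3.17, 7.00 and 13.9 (1.25), and *Dgkh*, a diacylglycerol kinase, at 12.9, 15.3 and 22.7 and at 22.3, 28.9 and 42.6 (0.89). HFD lay between them at the median for all 3 genes. On the lower side, *H2-Q10*, a class Ib histocompatibility gene with close copies, gave −1.63 with the drug and −1.66 in HFD against CD, and the linker histone *H1f0* gave −0.41 and −0.43. *Casp4*, the inflammatory caspase that senses lipopolysaccharide, gave −0.76 with the drug and −0.09 in HFD against CD, and −0.66 between HFDmetf and HFD. *Mbl2*, a secreted lectin that starts complement, was at 0.522 to 12.3 CPM in CD and at 0 to 1.71 in HFDmetf. None passed FDR < 0.05 by edgeR, and by DESeq2 *Myo1f* and *H2-Q10* did.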
